A study of Schmidtea mediterranea with 24 samples.

Results

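A set of 150 transcripts of the planarian *Schmidtea mediterranea* lay higher after *yki(RNAi)* than after *control(RNAi)* in intact animals and in regenerating tails taken 6, 12 or 24 hours after amputation (hpa, hours post amputation). They were chosen by that difference itself. Among the 82669 transcripts counted, the 82478 known only by a SmedASXL number were taken, and 13156 of these reached a median level of 5 CPM (counts-per-million) in at least 1 group. For each, the difference between the *yki(RNAi)* and the *control(RNAi)* group median of log2(CPM + 0.5) was computed in each of the 4 states, and the 150 transcripts with the largest smallest difference became the members. Transcripts that carry a gene name in the count table could not be chosen. The differences between *yki(RNAi)* and *control(RNAi)* are therefore given as a description, with no test. The changes of the members on amputation were tested, though on the same libraries. For 23 members, whose medians reached 5 CPM in tails but in neither group of intact animals, the choice also used the level in tails. Their calls in tails are thus read as nothing, and counts of members called higher over intact animals are given with and without them. For 1 more, SmedASXL_006161, the medians reached 5 CPM in intact animals alone, so its calls in tails are not read either.

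The study sequenced polyadenylated RNA of 24 libraries in 8 groups of 3 biological replicates, named A, B and C. *yki(RNAi)* animals had been fed double-stranded RNA against *yki* and *control(RNAi)* animals double-stranded RNA of *gfp*, which planarians lack, 3 times each. All animals were of the asexual clonal strain CIW4, were kept in high salt for 15 days and received 60 Gy of irradiation, and tails were cut from them 24 hours later. In each RNAi condition, the groups were intact animals, with more than 8 pooled per library, and tails at 6, 12 and 24 hpa, with 15 tail fragments pooled per library. Intact animals held all body regions, so the tail region, the time since irradiation and the response to amputation cannot be told apart in a comparison of tails with intact animals. In these bulk samples, fewer cells of a type and less RNA per cell cannot be told apart either.

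Yorkie is the transcriptional coactivator at the end of the Hippo pathway, a kinase cascade known for the control of organ size in flies and mammals. When the kinases are active, they keep Yorkie out of the nucleus, and when they are not, Yorkie joins DNA-binding partners and raises the transcription of its targets. In planarians, adult stem cells called neoblasts replace lost tissue, and every wound sets off a transient program of induced genes. Posterior identity is held by WNT ligands, their β-catenin signal and posterior HOX genes, which are expressed towards the tail tip.

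The targeted transcript was lower in every *yki(RNAi)* library, at 12.4 to 19.8 CPM, than in every *control(RNAi)* library, at 78.1 to 119.3 CPM. Library totals were 11021767 to 23601139 counts. For *yki(RNAi)* intact A the counts are of 1 lane, since the other is damaged. Of the marker lists, 5 of 14 stem cell markers were found by name, and their summed level was 484.3 to 511.9 CPM in *yki(RNAi)* tails against 427.3 to 445.9 CPM in *control(RNAi)* tails at 12 hpa. The sum was also above *control(RNAi)* in the other 3 states. In intact animals the ranges almost touched, at 499.349 to 596.39 CPM after *yki(RNAi)* and 440.764 to 499.33 CPM after *control(RNAi)*. The 19 rows matched to the epidermal lineage summed to 1819 to 1898 CPM in *yki(RNAi)* tails and 2237 to 2499 CPM in *control(RNAi)* tails at that time. Their sum was 1408 to 1424 CPM after *yki(RNAi)* and 1497 to 1643 CPM after *control(RNAi)* at 24 hpa, while the conditions overlapped in intact animals, at 2596 to 3264 and 2353 to 2839 CPM, and at 6 hpa, at 3038 to 3380 and 3321 to 3627 CPM. For neurons 2 of 9 markers were found, and they summed to 15.0 to 18.3 CPM in *yki(RNAi)* tails and 9.84 to 10.9 CPM in *control(RNAi)* tails at 12 hpa. The single eye marker matched, *ovo*, was at or under 0.453648 CPM in every library, and the single pharynx marker, *meis*, stood at 6.32 to 7.39 CPM in *yki(RNAi)* tails and 3.81 to 4.65 CPM in *control(RNAi)* tails at 12 hpa. The part of these differences in the levels of the members was not tested, and no name matched the lists for gut, muscle or protonephridia.

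The members lay higher after *yki(RNAi)* by a similar amount in every state. Their median difference was 0.72 on the log2 scale in intact animals, 0.75 at 6 hpa, 0.85 at 12 hpa and 0.77 at 24 hpa, which corresponds to 1.64, 1.68, 1.799 and 1.71-fold. Over all 13156 transcripts the median differences were 0.04, 0.05, 0.09 and 0.05. The smallest of the 4 differences was at least 1 in 14 members. The largest of the 4 was found at 12 hpa in 74 members, in intact animals in 27, at 24 hpa in 30 and at 6 hpa in 19. Over all 13156 transcripts it was found at 12 hpa in 4591, in intact animals in 4155, at 24 hpa in 2364 and at 6 hpa in 2046. At the limit of the list, SmedASXL_012029, SmedASXL_010677 and SmedASXL_014295 came in with smallest differences of 0.465, 0.461 and 0.456, and SmedASXL_016159, SmedASXL_015386 and SmedASXL_011688 stayed out with 0.4500, 0.4495 and 0.4490.

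**Figure D1:**
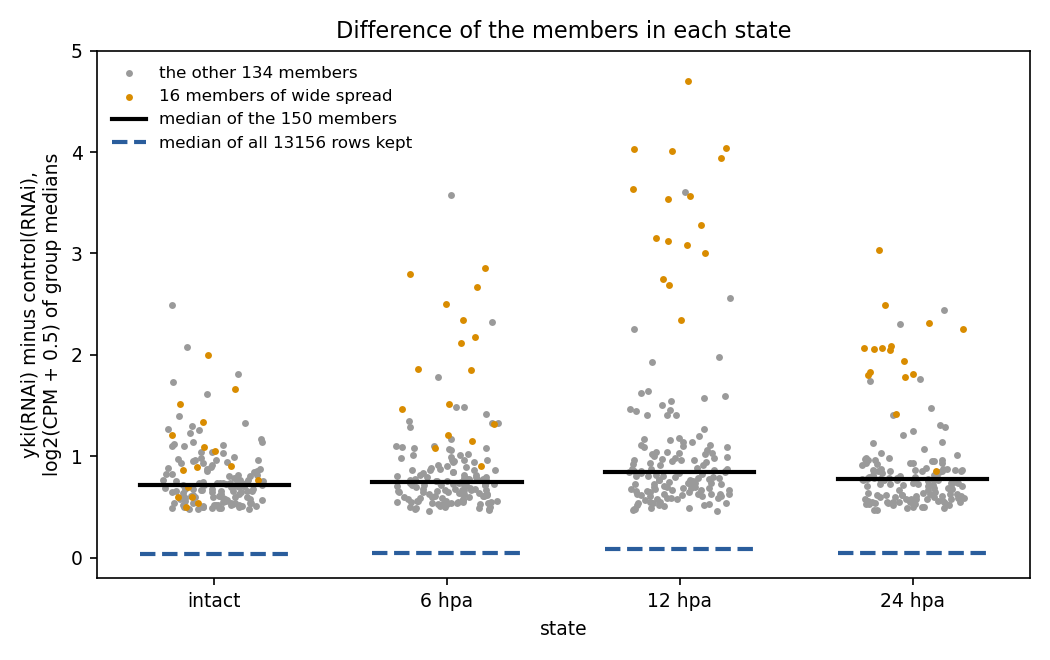
Difference between *yki(RNAi)* and *control(RNAi)* group medians, as log2(CPM + 0.5), for each of the 150 members in the 4 states (points, with the 16 members of wide spread in orange). The black line is the median of the members, at 0.72 to 0.85, and the dashed blue line the median of all 13156 transcripts, at 0.04 to 0.09.

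The separation held in most single libraries as well as in the medians that chose the members. In intact animals, the lowest *yki(RNAi)* library exceeded the highest *control(RNAi)* library in 123 of 150 members, against 20.2% of all transcripts kept. The counts were 129 members at 6 hpa (23.2% of all), 150 at 12 hpa (39.6% of all) and 126 at 24 hpa (23.8% of all). In every state at once the libraries did not overlap in 115 members, against 6.23% of all transcripts. In 63 members, each of the 12 *yki(RNAi)* libraries exceeded each of the 12 *control(RNAi)* libraries, whatever the state, against 1.73% of all transcripts. The choice of the members used these libraries, so nothing further is read from these counts.

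The members spanned a wide range of levels. In *yki(RNAi)* tails, 18 members had a median under 5 CPM over the 9 libraries, 26 lay between 5 and 10 CPM, 84 between 10 and 100 CPM, 20 between 100 and 1000 CPM and 2 above 1000 CPM. The median member stood at 21.2, 25.4, 25.2 and 27.1 CPM in *yki(RNAi)* intact animals and tails at 6, 12 and 24 hpa, against 12.5, 15.2, 13.4 and 14.8 CPM in *control(RNAi)* animals. The median of all transcripts kept was 19.8 to 20.8 CPM in every group. CPM is not corrected for transcript length, so a higher CPM does not show that one member had more transcript molecules than another.

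The first place on the list belonged to SmedASXL_006170, a transcript without a name. It had 1.41, 5.24 and 3.34 CPM in *yki(RNAi)* intact animals, against 0.181, 0.281 and 0.0874 CPM in *control(RNAi)* intact animals. At 6 hpa it stood at 3.94, 10.3 and 6.01 CPM in *yki(RNAi)* tails, against 0, 0.0452 and 0.0471 CPM in *control(RNAi)* tails, and at 12 hpa at 7.01, 7.83 and 9.66 CPM against 0.182, 0.164 and 0.212 CPM. At 24 hpa the values were 4.93, 7.64 and 6.92 CPM in *yki(RNAi)* tails and 0.998, 0.408 and 1.76 CPM in *control(RNAi)* tails. The transcript was thus close to the detection limit in *control(RNAi)* libraries, which hold 87 of its counts in all, and present in each *yki(RNAi)* library.

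SmedASXL_061470 had the highest CPM of the 8 leading members, of which 4, SmedASXL_023953, SmedASXL_020243, SmedASXL_005433 and SmedASXL_061594, belong to a group of wide spread between replicates. Its *yki(RNAi)* libraries had 136, 119 and 124 CPM in intact animals, 162, 170.4 and 160.2 CPM at 6 hpa, 157, 180.5 and 179 CPM at 12 hpa and 175, 214 and 187 CPM at 24 hpa. The *control(RNAi)* libraries had 66.6, 47.1 and 49.2 CPM in intact animals, 63.5, 66.9 and 61.02 CPM at 6 hpa, 58.2, 57.02 and 55.5 CPM at 12 hpa and 67.04, 79.9 and 63.2 CPM at 24 hpa, so no *control(RNAi)* library of any state reached a *yki(RNAi)* library. SmedASXL_010173 and SmedASXL_004625 also led the list. SmedASXL_010173 was lower in late than in early tails. It had 4.99, 8.43 and 7.35 CPM at 24 hpa, against 16.2, 16.2 and 11.2 CPM at 6 hpa, after *yki(RNAi)*, and 0.946, 1.78 and 0.927 CPM at 24 hpa, against 2.85, 4.66 and 2.78 CPM at 6 hpa, after *control(RNAi)*. SmedASXL_004625 had 15.3, 15.9 and 14.8 CPM in *yki(RNAi)* tails and 2.37, 2.19 and 2.08 CPM in *control(RNAi)* tails at 12 hpa.

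The 5 members of highest CPM in *yki(RNAi)* tails carried no name. SmedASXL_014295 had median levels of 5780, 6760, 5697 and 6076 CPM in *yki(RNAi)* intact animals and tails at 6, 12 and 24 hpa, against 3989, 4788, 4153 and 3991 CPM after *control(RNAi)*. SmedASXL_009684 had 1448, 2567, 2373 and 2238 CPM after *yki(RNAi)* and 744, 1443, 1405 and 1299 CPM after *control(RNAi)* in the same order. The libraries of the RNAi conditions did not overlap in any state in either transcript. SmedASXL_008246, SmedASXL_010411 and SmedASXL_014739 followed, with differences of 0.70 to 0.82, 0.67 to 0.87 and 0.60 to 0.82 over the 4 states.

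A group of 16 members differed from the other 134 in how its replicates behaved. These 16, all without a name, were set apart after their values were seen, as the members whose replicates, as log2(CPM + 0.5), ranged over more than 8-fold in some group. Their largest range within a group was 3.83 to 7.14 on the log2 scale, against 0.17 to 2.72 in the other members. In 15 of the 16 the group of largest range was *control(RNAi)* tails at 24 hpa. SmedASXL_005433 is an example. At 24 hpa it had 19.9, 3.11 and 10.95 CPM in *yki(RNAi)* tails, against 70.3, 2.75 and 0.0464 CPM in *control(RNAi)* tails. At 12 hpa it had 4.11, 3.94 and 1.55 CPM in *yki(RNAi)* tails and 0, 0 and 0 CPM in *control(RNAi)* tails. The highest library of all was thus a *control(RNAi)* library, and the groups overlapped at 24 hpa, although the group medians put the transcript on the list.

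All 16 moved together from library to library. The median of the 16 was 2.62, 0.249 and 0.566 CPM in *yki(RNAi)* intact animals A, B and C, against 2.31, 0 and 0 CPM in *control(RNAi)* intact animals. In tails at 6 hpa it was 1.49, 0.0497 and 1.75 CPM after *yki(RNAi)*, against 3.41, 0 and 0 CPM after *control(RNAi)*, and at 12 hpa 4.87, 5.52 and 2.92 CPM, against 0, 0.109 and 0 CPM. At 24 hpa it was 14.3, 2.90 and 10.9 CPM after *yki(RNAi)*, against 42.4, 2.52 and 0.0464 CPM after *control(RNAi)*. Replicate A of *control(RNAi)* was high in intact animals and at 6 and 24 hpa, and replicate B of *yki(RNAi)* was the lowest of its group in intact animals and at 6 and 24 hpa. At 12 hpa the lowest *yki(RNAi)* library exceeded the highest *control(RNAi)* library in 16 of the 16, and in the other 3 states in 0 of the 16. Across the 24 libraries, the deviations of 2 of these members from their group means had a median Pearson r of 0.95 over 120 pairs, with the lowest at 0.75, against a median of 0.16 over the 8911 pairs of the other members. These points share libraries and depth, and whether the 16 share sequence was not tested. Counts of called members are given below with and without these 16.

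**Figure D2:**
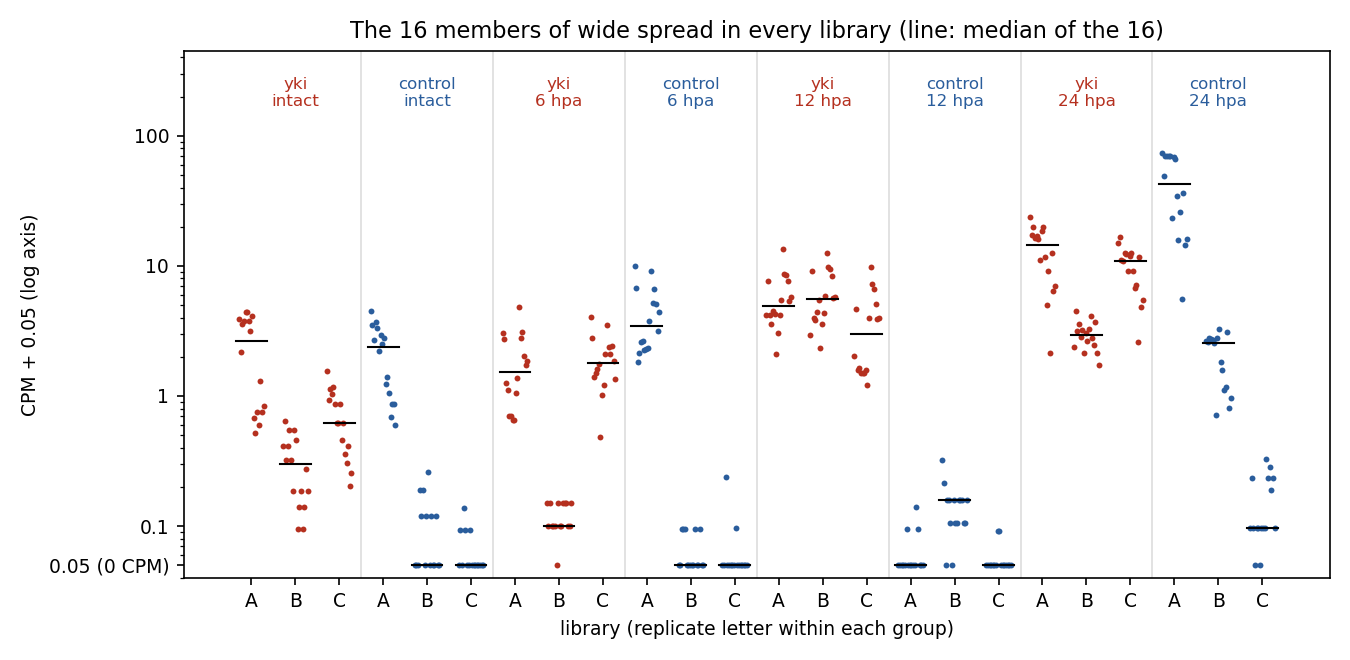
Level of the 16 members of wide spread in each of the 24 libraries, as CPM + 0.05 on a log axis (1 point per transcript, line at the median of the 16). *control(RNAi)* 24 hpa library A is the highest, with a median of 42.4 CPM, while library C of the same group has 0.0464 CPM.

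Without these 16, the 134 other members had median differences of 0.70 in intact animals, 0.72 at 6 hpa, 0.80 at 12 hpa and 0.74 at 24 hpa. Of the 134, 115 had *yki(RNAi)* libraries free of overlap with *control(RNAi)* libraries in each of the 4 states, and 15 in 3 states. Within a member, the largest and the smallest of the 4 differences lay a median of 0.31 apart on the log2 scale, and 102 of the 134 kept them within 0.5. Over all 13156 transcripts, the median of the largest difference was 0.20 and that of the smallest -0.095. The distance within each transcript was not computed there, so it is not read as particular to the members.

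Few members were called on amputation, and their shares are set beside those of all transcripts. Tails were compared with intact animals of the same RNAi condition by the edgeR quasi-likelihood test over all transcripts, with a call wherever the change was at least 2-fold and the adjusted p stayed under 0.05. All transcripts here are those that passed the filter on low counts, a wider set than the 13156 that reached 5 CPM and from which the members came. The shares of members and of all transcripts are thus not of like sets. In *yki(RNAi)* tails, where all 150 members were tested, 10 were higher at 6 hpa (6.67%, against 0.484% of all 26856 transcripts tested). The counts were 19 at 12 hpa (12.7%, against 3.23% of all) and 27 at 24 hpa (18.0%, against 6.18% of all). Lower were 1, 1 and 2 members (2.31%, 2.95% and 3.47% of all). In *control(RNAi)* tails, 11 of the 133 members tested were higher at 6 hpa (8.27%, against 0.707% of all). The counts were 10 of 133 at 12 hpa (7.52%, against 1.3% of all) and 15 of 149 at 24 hpa (10.1%, against 1.64% of all). Lower were 1, 1 and 2 (2.47%, 2.79% and 2.66% of all). In all 6 comparisons 1 of those lower is SmedASXL_006161, whose calls are not read. The 17 members not tested in *control(RNAi)* tails at 6 and 12 hpa fell under the filter on low counts, and 16 of them are those of wide spread. All 127 members that reached 5 CPM in intact animals were tested in each of these comparisons. Of the 127, 9, 9 and 10 were higher at 6, 12 and 24 hpa in *yki(RNAi)* tails (0.484%, 3.23% and 6.18% of all). In *control(RNAi)* tails 10, 9 and 13 of the 127 were higher (0.707%, 1.3% and 1.64% of all). The 10 of 127 at 24 hpa in *yki(RNAi)* tails lie near the share of all transcripts and are not read as a trait of the members. Differences in these calls between the RNAi conditions were not tested, since they are part of the contrast that chose the members.

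The 16 members of wide spread are all among the 23 that the choice took for their level in tails. They reached a median of 5 CPM in *yki(RNAi)* tails alone, 8 of them at 12 hpa and 13 at 24 hpa, so nothing is read from their calls there, which make up 8 of the 19 members called higher at 12 hpa and 16 of the 27 at 24 hpa. Of the 134 other members, 10, 11 and 11 were higher in *yki(RNAi)* tails at 6, 12 and 24 hpa, beside 0.484%, 3.23% and 6.18% of all transcripts tested. In *control(RNAi)* tails, 1 of the 16, SmedASXL_009785, was called higher at 24 hpa, and that call was lost with DESeq2 and without any 1 of *control(RNAi)* intact A, B or C or 24 hpa A. Without *control(RNAi)* 24 hpa library C the count at 24 hpa was 30 in place of 15, and without library B it was 23. For *yki(RNAi)* tails at 6 hpa, replicate letters paired the libraries, and a fit with the letter as a block called 17 members higher and 2 lower in place of 10 and 1, as did leaving out *yki(RNAi)* 6 hpa library B for the 17 higher.

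**Figure D3:**
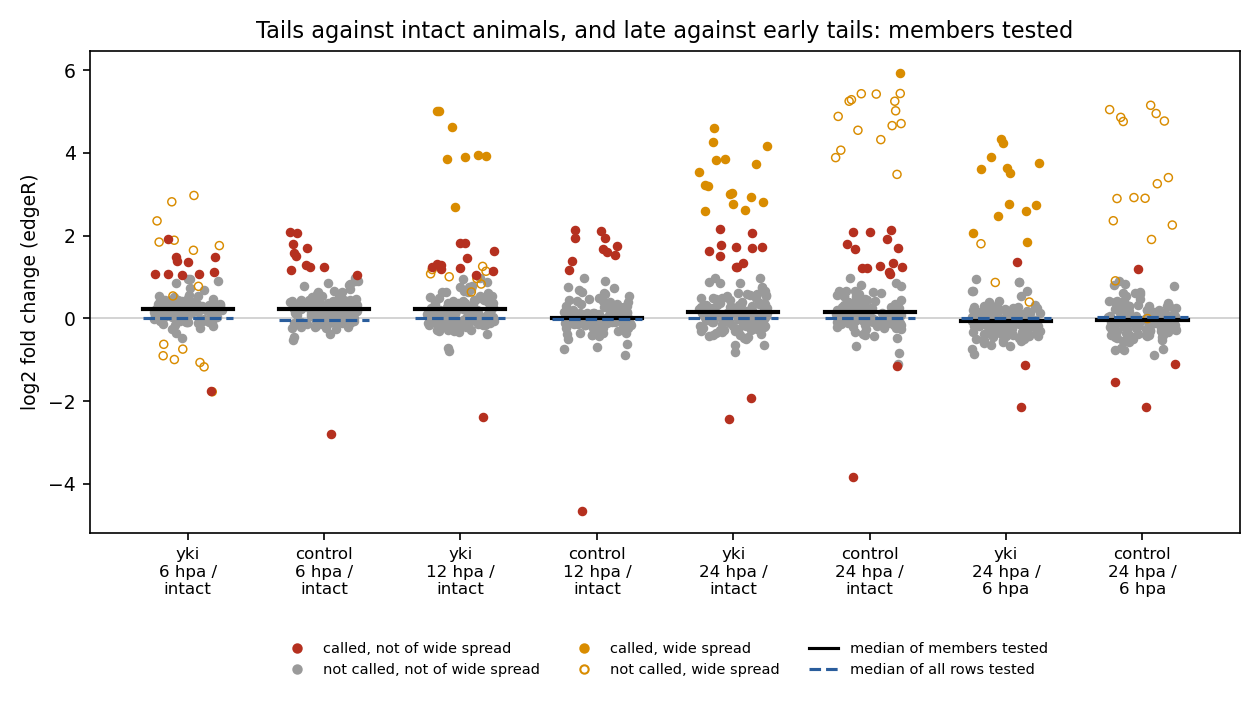
Log2 fold change by edgeR of every member tested, for tails against intact animals at 3 times and for tails at 24 hpa against 6 hpa, with *yki(RNAi)* left of *control(RNAi)* in each pair. Filled red and orange points are called. Of the 134 members that are not of wide spread, 10 or 11 are called higher in *yki(RNAi)* tails at each time, beside 0.484% to 6.18% of all transcripts tested. Black and dashed lines give the medians of the members and of all transcripts tested.

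Most members were not called on amputation. The median log2 fold change between tails and intact animals was 0.23, 0.21 and 0.16 at 6, 12 and 24 hpa in *yki(RNAi)*, and 0.22, 0.01 and 0.16 in *control(RNAi)*, beside medians between -0.03 and 0.01 for all transcripts tested. Without *control(RNAi)* intact B the median at 12 hpa in *control(RNAi)* was -0.003. Among the 134 other members, 116 were called in neither direction in any of the 6 comparisons of tails with intact animals, and 18 were called in at least 1, against 8.78% of the 13156 transcripts. Of the 16 called higher at least once, 14 are on the study's list of wound-induced transcripts, which was itself chosen on these *control(RNAi)* libraries and is no independent evidence, and the remaining 2 are SmedASXL_013530 and SmedASXL_006170. The 16 include 9 transcripts marked as tail-enriched in an atlas of body regions. SmedASXL_067457, which is 1 of these 9 and of the 14 on the list, and SmedASXL_006170 reached 5 CPM in tails alone. Their calls, and those of SmedASXL_006161 among the 18, are counted here but not read.

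*wnt11-2*, *Post-2d* and *Hox7b* are marked as tail-enriched, and *Sp5* is from an earlier list of wound genes. *wnt11-2* (SmedASXL_014750) encodes a secreted WNT ligand expressed at the posterior end. Its *yki(RNAi)* libraries had 6.56, 7.37 and 6.94 CPM in intact animals, 27.4, 26.7 and 24.3 CPM at 6 hpa, 26.8, 26.4 and 22.8 CPM at 12 hpa and 28.3, 31.5 and 29.8 CPM at 24 hpa. Its *control(RNAi)* libraries had 4.08, 4.42 and 4.90 CPM in intact animals, 19.6, 18.1 and 16.6 CPM at 6 hpa, 20.9, 18.8 and 18.7 CPM at 12 hpa and 18.9, 20.1 and 16.7 CPM at 24 hpa. By edgeR tails were 3.51 to 4.37-fold above intact animals from the first time on, with no overlap, and the *yki(RNAi)* libraries stayed above the *control(RNAi)* libraries throughout. The log2 fold change of tails over intact animals at 24 hpa was 2.06 ± 0.09 (SE, adjusted p = 1.2e-07) by edgeR in *yki(RNAi)* and 2.08 ± 0.14 (SE, adjusted p = 1.89e-06) in *control(RNAi)*.

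*Post-2d* (SmedASXL_012639) and *Hox7b* (SmedASXL_008764) are HOX genes, which encode homeodomain transcription factors that mark position along the body axis. *Post-2d* had 10.4, 16.1 and 14.1 CPM in *yki(RNAi)* intact animals and 37.4, 42.98 and 33.6 CPM at 6 hpa, 47.3, 42.2 and 41.8 CPM at 12 hpa and 47.3, 46.9 and 46.3 CPM at 24 hpa. After *control(RNAi)* it had 6.44, 6.66 and 7.91 CPM in intact animals and 23.1, 19.2 and 18.1 CPM at 6 hpa, 24.9, 23.2 and 21.8 CPM at 12 hpa and 23.9, 26.1 and 21.4 CPM at 24 hpa. In both conditions every tail library exceeded every intact library. At 24 hpa its log2 fold change by edgeR was 1.73 ± 0.13 (SE, adjusted p = 6.04e-06) in *yki(RNAi)* and 1.79 ± 0.13 (SE, adjusted p = 3.74e-06) in *control(RNAi)*.

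For *Hox7b*, the *yki(RNAi)* values were 4.53, 5.61 and 6.94 CPM in intact animals and 17.5, 16.7 and 10.1 CPM at 6 hpa, 14.7, 15.99 and 14.01 CPM at 12 hpa and 21.4, 20.8 and 18.96 CPM at 24 hpa. Its *control(RNAi)* values were 1.81, 1.19 and 1.88 CPM in intact animals and 7.47, 6.10 and 6.55 CPM at 6 hpa, 6.79, 7.005 and 7.08 CPM at 12 hpa and 7.51, 7.60 and 6.17 CPM at 24 hpa. The levels of *control(RNAi)* tails thus overlapped with those of *yki(RNAi)* intact animals. The log2 fold change at 6 hpa was 1.37 ± 0.20 (SE, adjusted p = 0.000671) by edgeR in *yki(RNAi)* and 2.09 ± 0.20 (SE, adjusted p = 4.91e-05) in *control(RNAi)*, and at 24 hpa 1.78 ± 0.14 and 2.14 ± 0.20 (SE).

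*Sp5* (SmedASXL_006379), called higher in tails in 4 of the 6 comparisons, encodes a zinc finger transcription factor known in vertebrates as a target of WNT signalling. It had 23.3, 30.8 and 30.8 CPM in *yki(RNAi)* intact animals and 62.9, 64.6 and 51.2 CPM at 6 hpa, 59.8, 59.2 and 52.6 CPM at 12 hpa and 54.02, 54.5 and 50.9 CPM at 24 hpa, against 10.8, 12.5 and 16.9 CPM in intact animals and 39.3, 32.6 and 38.8 CPM at 6 hpa, 40.4, 44.2 and 39.1 CPM at 12 hpa and 31.3, 31.7 and 22.7 CPM at 24 hpa after *control(RNAi)*. Tails and intact animals did not overlap in either condition. By edgeR the log2 fold change at 6 hpa was 1.08 ± 0.12 (SE, adjusted p = 4.71e-05) in *yki(RNAi)* and 1.51 ± 0.16 (SE, adjusted p = 7.93e-05) in *control(RNAi)*. At 12 and 24 hpa *yki(RNAi)* tails were 1.94 and 1.82-fold above intact animals, under the 2-fold minimum, and the calls in *yki(RNAi)* at 6 hpa and in *control(RNAi)* at 24 hpa also fell just under it, to 0.96 on the log2 scale, without library A of the intact animals.

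**Figure D4:**
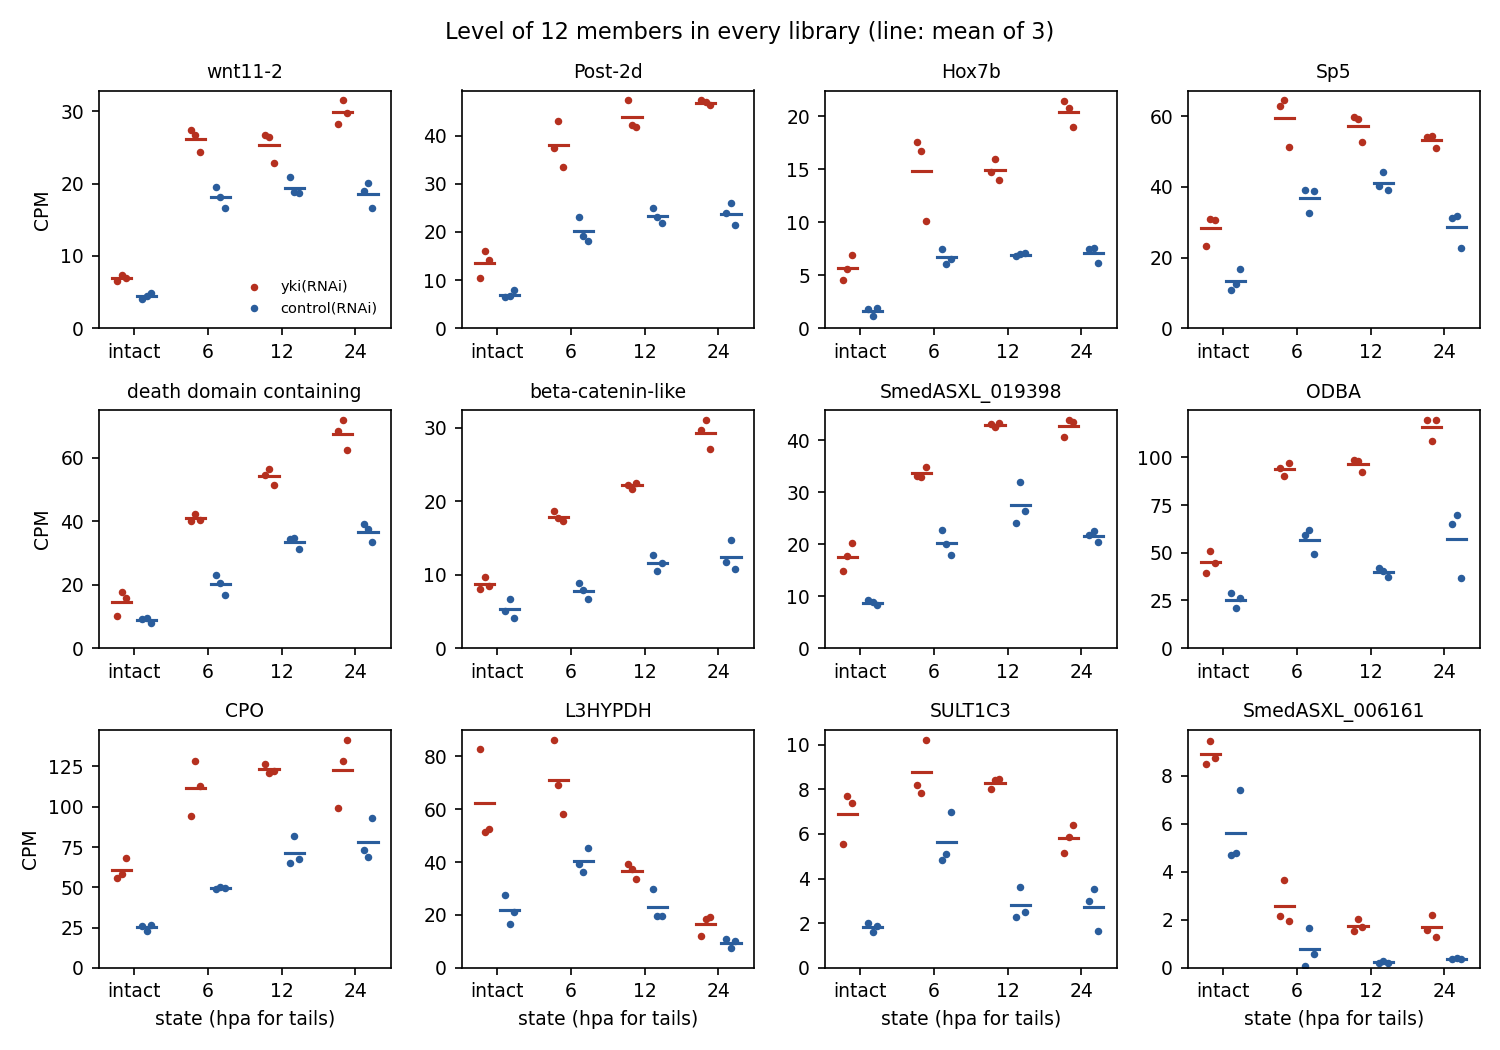
Level in CPM of 12 members in each library of intact animals and of tails at 6, 12 and 24 hpa, with *yki(RNAi)* left of *control(RNAi)* (points: 3 libraries per group, line: their mean). The means of the first 9 panels are higher in tails than in intact animals, *L3HYPDH* falls with time to a mean of 16.6 CPM in *yki(RNAi)* and 9.44 CPM in *control(RNAi)* tails at 24 hpa, and SmedASXL_006161 is lower in all tails.

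Further tail-enriched members were called higher in tails. A transcript for a protein with a death domain, a module of signalling proteins (SmedASXL_010139), was called in all 6 comparisons. It had 10.1, 17.7 and 15.8 CPM in *yki(RNAi)* intact animals and 40.2, 42.4 and 40.5 CPM at 6 hpa, 54.7, 56.7 and 51.6 CPM at 12 hpa and 68.6, 71.9 and 62.5 CPM at 24 hpa, against 9.35, 9.54 and 7.96 CPM in intact animals and 23.1, 20.5 and 16.8 CPM at 6 hpa, 34.4, 34.8 and 31.2 CPM at 12 hpa and 39.2, 37.5 and 33.4 CPM at 24 hpa after *control(RNAi)*. In neither condition did its libraries at 24 hpa overlap those at 6 hpa, though the change between these times stayed under 2-fold. Its log2 fold change over intact animals at 24 hpa was 2.16 ± 0.16 (SE, adjusted p = 5.69e-06) by edgeR in *yki(RNAi)* and 2.09 ± 0.12 (SE, adjusted p = 4.8e-07) in *control(RNAi)*. A β-catenin-like transcript (SmedASXL_012031) resembles by name the protein that carries the WNT signal into the nucleus. Its means were 8.70 ± 0.825, 17.9 ± 0.721, 22.2 ± 0.421 and 29.3 ± 2.03 CPM in *yki(RNAi)* intact animals and tails at 6, 12 and 24 hpa (SD, n = 3 each), against 5.32 ± 1.31, 7.82 ± 1.12, 11.6 ± 1.10 and 12.4 ± 2.10 CPM after *control(RNAi)*. The rise at 6 hpa was called in *yki(RNAi)*, at 1.05 ± 0.10 (SE, adjusted p = 1.51e-05) by edgeR, and was 0.64 ± 0.19 (SE) with an adjusted p of 0.0599 in *control(RNAi)*. The *yki(RNAi)* call, and the one in *control(RNAi)* at 12 hpa, fell to 0.992 and 0.996 on the log2 scale, under the 2-fold minimum, without *yki(RNAi)* intact A and *control(RNAi)* intact C.

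ODBA is a name used in mammals for a subunit of the dehydrogenase of branched-chain keto acids, an enzyme of amino acid breakdown. *ODBA* (SmedASXL_003783) had means of 44.9 ± 5.75, 93.9 ± 3.35, 96.5 ± 3.41 and 116 ± 6.31 CPM in the 4 states after *yki(RNAi)* (SD, n = 3 each), against 25.5 ± 4.04, 56.8 ± 6.41, 39.9 ± 2.63 and 57.3 ± 17.9 CPM after *control(RNAi)*. At 12 hpa its *control(RNAi)* tails were 1.60-fold above intact animals and not called, while *yki(RNAi)* tails were called at 1.05 ± 0.08 (SE, adjusted p = 8.16e-08) by edgeR. The *yki(RNAi)* calls of *ODBA* at 6 and 12 hpa fell to 0.98 and 0.94, under the 2-fold minimum, without *yki(RNAi)* intact A.

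SmedASXL_019398 and SmedASXL_067457 are tail-enriched members that carry no name. SmedASXL_019398 had means of 17.6 ± 2.71, 33.7 ± 1.10, 43.00 ± 0.467 and 42.7 ± 1.82 CPM in the 4 states after *yki(RNAi)* (SD, n = 3 each), against 8.74 ± 0.480, 20.2 ± 2.42, 27.5 ± 4.08 and 21.5 ± 1.09 CPM after *control(RNAi)*. It was called higher in tails in 5 of the 6 comparisons, and in *yki(RNAi)* tails at 6 hpa it stood 1.92-fold above intact animals. SmedASXL_067457 had 2.01 ± 0.548, 5.40 ± 0.313, 5.91 ± 0.676 and 6.54 ± 1.22 CPM after *yki(RNAi)* (SD, n = 3 each), against 1.09 ± 0.239, 3.49 ± 0.761, 4.01 ± 0.389 and 3.92 ± 0.121 CPM after *control(RNAi)*, and it is among the members that reached 5 CPM in tails alone, so its calls are not read. *wnt11-2*, *Post-2d* and *Hox7b* were called higher in all 6 comparisons.

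The 2 members marked as not tail-enriched were called higher at 24 hpa in both conditions. SmedASXL_010177 had 9.37, 12.9 and 13.6 CPM in *yki(RNAi)* intact animals and 11.8, 13.7 and 18.1 CPM at 6 hpa, 20.9, 23.6 and 24.5 CPM at 12 hpa and 31.6, 28.6 and 27.9 CPM at 24 hpa, against 6.99, 12.7 and 8.39 CPM in intact animals and 7.37, 9.31 and 8.01 CPM at 6 hpa, 11.02, 13.1 and 12.6 CPM at 12 hpa and 19.6, 20.04 and 18.3 CPM at 24 hpa after *control(RNAi)*. At 6 hpa its tails overlapped with intact animals in both conditions, and at 24 hpa it was called higher, with a log2 fold change of 1.24 ± 0.13 (SE, adjusted p = 5.34e-05) by edgeR in *yki(RNAi)* and 1.08 ± 0.19 (SE, adjusted p = 0.00377) in *control(RNAi)*. The *control(RNAi)* call was lost without intact library A, at 0.90, or C, at 0.99. SmedASXL_016784 had means of 19.6 ± 1.46, 40.3 ± 5.42, 46.7 ± 2.15 and 66.1 ± 6.98 CPM after *yki(RNAi)* (SD, n = 3 each), against 14.5 ± 4.38, 23.8 ± 4.59, 25.7 ± 3.03 and 32.4 ± 7.71 CPM after *control(RNAi)*. It was called higher at all 3 times in *yki(RNAi)* tails and at 24 hpa in *control(RNAi)* tails, and the *yki(RNAi)* call at 6 hpa fell to 0.96 without *yki(RNAi)* 6 hpa library B.

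Members named in an earlier list of wound genes included 3 for enzymes, and these did not follow one course. *CPO* (SmedASXL_012781), for a carboxypeptidase, an enzyme that trims proteins from their end, had 55.6, 58.4 and 67.9 CPM in *yki(RNAi)* intact animals and 94.4, 128 and 113 CPM at 6 hpa, 126, 121 and 122 CPM at 12 hpa and 98.9, 128 and 142 CPM at 24 hpa, against 25.8, 22.8 and 26.8 CPM in intact animals and 48.96, 50.1 and 49.8 CPM at 6 hpa, 65.2, 81.6 and 67.4 CPM at 12 hpa and 72.9, 68.9 and 92.8 CPM at 24 hpa after *control(RNAi)*. It was called higher in *control(RNAi)* tails at all 3 times, with 1.68 ± 0.12 (SE, adjusted p = 2.97e-06) by edgeR at 24 hpa, and stood 1.86 to 1.98-fold above intact animals in *yki(RNAi)* tails, under the 2-fold minimum. *SULT1C3* (SmedASXL_006173), for a sulfotransferase, which adds sulfate to small molecules, was called higher in *control(RNAi)* tails at 6 hpa alone. At this time *yki(RNAi)* tails had 8.19, 7.85 and 10.2 CPM, with 5.55, 7.68 and 7.41 CPM in *yki(RNAi)* intact animals, against 4.85, 5.11 and 6.97 CPM in tails and 1.996, 1.61 and 1.88 CPM in intact animals after *control(RNAi)*, with log2 fold changes of 0.34 ± 0.15 (SE, adjusted p = 0.217) in *yki(RNAi)* and 1.70 ± 0.22 (SE, adjusted p = 0.000391) in *control(RNAi)* by edgeR. The *yki(RNAi)* intact animals thus already overlapped with the level of the *control(RNAi)* tails.

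*L3HYPDH* (SmedASXL_019387), for an enzyme that degrades a hydroxyproline, a building block of collagen, was the only member with a gene name that was called lower in tails than in intact animals. It had 82.8, 51.4 and 52.6 CPM in *yki(RNAi)* intact animals and 85.99, 69.01 and 58.2 CPM at 6 hpa, 39.3, 37.5 and 33.5 CPM at 12 hpa and 11.9, 18.6 and 19.3 CPM at 24 hpa, against 27.4, 16.7 and 21.2 CPM in intact animals and 39.3, 36.4 and 45.1 CPM at 6 hpa, 29.7, 19.5 and 19.5 CPM at 12 hpa and 10.8, 7.44 and 10.1 CPM at 24 hpa after *control(RNAi)*. At 24 hpa tails lay below intact animals without overlap, at -1.92 ± 0.19 (SE, adjusted p = 3.95e-05) on the log2 scale by edgeR in *yki(RNAi)* and -1.15 ± 0.18 (SE, adjusted p = 0.0015) in *control(RNAi)*. At 6 hpa *control(RNAi)* tails had stood 1.97-fold above intact animals. The *control(RNAi)* call at 24 hpa fell to -0.99 without *control(RNAi)* intact A or without 24 hpa library B. SmedASXL_013530, listed there without a name, was called higher at 24 hpa in both conditions. It had 135, 101 and 119.7 CPM in *yki(RNAi)* tails at that time, against 53.96, 73.7 and 10.8 CPM in *control(RNAi)* tails, where library C lay below the *control(RNAi)* intact animals, at 13.4 to 16.1 CPM.

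SmedASXL_006161 was lower in tails in all 6 comparisons, though it is the 1 member that reached 5 CPM in intact animals alone, so its calls are not read. It had 8.52, 9.45 and 8.74 CPM in *yki(RNAi)* intact animals and 2.17, 3.68 and 1.94 CPM at 6 hpa, 1.52, 2.04 and 1.69 CPM at 12 hpa and 1.57, 2.21 and 1.28 CPM at 24 hpa, against 4.72, 4.77 and 7.43 CPM in intact animals and 0.0933, 1.67 and 0.565 CPM at 6 hpa, 0.182, 0.274 and 0.212 CPM at 12 hpa and 0.368, 0.408 and 0.371 CPM at 24 hpa after *control(RNAi)*. The log2 fold change at 12 hpa, given as a description, was -2.40 ± 0.15 (SE) by edgeR in *yki(RNAi)* and -4.65 ± 0.32 (SE) in *control(RNAi)*. SmedASXL_006170, the leading member, reached 5 CPM in tails alone, and its call in *yki(RNAi)* tails at 12 hpa is not read either. In *control(RNAi)* tails at 6, 12 and 24 hpa it fell under the filter on low counts and was not tested.

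Within tails, few members were called between the first and the last time in the fit without the replicate letter, where a call asks for a change of at least 2-fold. At 24 hpa against 6 hpa, 14 of 150 members were higher (4.42% of all transcripts tested) and 2 lower (1.1% of all) in *yki(RNAi)* tails, and 1 of 148 was higher (3.98% of all) and 3 lower (1.38% of all) in *control(RNAi)* tails. Of the 14 in *yki(RNAi)*, 13 are members of wide spread, which were taken for their level in *yki(RNAi)* tails, and the remaining 1 is SmedASXL_013530. At an adjusted p under 0.05 and any size of change, 24 members had risen and 32 had fallen by 24 hpa after *yki(RNAi)*, and 11 had risen and 33 had fallen after *control(RNAi)*. How many of all transcripts passed this limit was not counted, so these counts are not read as particular to the members. Replicate letters paired the libraries of this comparison, and with the letter as a block 16 members were called higher in *control(RNAi)* tails in place of 1. Over all 27449 transcripts tested there, the block called 1322 higher in place of 1093. Without *control(RNAi)* 24 hpa library C the count was 8, and without *control(RNAi)* 6 hpa A, B or C or 24 hpa B it was 2. Of the 9 tail-enriched members, 0 were called in either condition by edgeR or by DESeq2. By edgeR, 7 of them had an unadjusted p under 0.05 in *yki(RNAi)* tails and 2 in *control(RNAi)* tails, and 4 and 2 kept an adjusted p under 0.05 with less than a 2-fold change. Over all transcripts tested, 10553 of 27734 in *yki(RNAi)* and 10266 of 27449 in *control(RNAi)* had an unadjusted p under 0.05, so such a change was common.

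Of the 134 other members, 43 had an adjusted p under 0.05 in *yki(RNAi)* tails, and 44 of the 132 tested in *control(RNAi)* tails, and 3 and 4 of these changes reached 2-fold. The counts at the adjusted p have no share of all transcripts beside them and are not read as particular to the members. *L3HYPDH* fell to 11.9 to 19.3 CPM at 24 hpa, against 58.2 to 86.0 CPM at 6 hpa, in *yki(RNAi)* tails, a log2 fold change of -2.15 ± 0.18 (SE, adjusted p = 7.1e-05) by edgeR, and -2.14 ± 0.15 (SE, adjusted p = 4.55e-05) in *control(RNAi)* tails. SmedASXL_010173 was lower as well, at -1.13 ± 0.19 (SE, adjusted p = 0.00233) in *yki(RNAi)* tails and -1.53 ± 0.30 (SE, adjusted p = 0.00622) in *control(RNAi)* tails by edgeR, and the *yki(RNAi)* call fell to -0.95 without *yki(RNAi)* 24 hpa library A. *SULT1C3* was lower in *control(RNAi)* tails, at -1.10 ± 0.26 (SE, adjusted p = 0.0148) by edgeR, and that call fell to -0.91 and -0.84 without *control(RNAi)* 6 hpa C and 24 hpa C. SmedASXL_010177 was the single member called higher in *control(RNAi)* tails, at 1.19 ± 0.10 (SE, adjusted p = 0.00015) by edgeR.

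The members make up a part of each list the study gives. The list used here holds 32 transcripts that the study marked, on these libraries, as wound-induced with a higher level in tails of *yki(RNAi)* animals and that carry a mark for tail enrichment, and 11 of them are members. It is not the whole of the study's choice. Of these 32, the 18 marked as tail-enriched hold 9 members and the 14 not so marked hold 2, while 150 of the 13156 transcripts kept are members. Both choices used the level of *yki(RNAi)* over *control(RNAi)* tails on the same libraries, so nothing is read from this overlap. The 18 tail-enriched transcripts, members or not, were called higher over intact animals in 14, 15 and 14 cases at 6, 12 and 24 hpa in *yki(RNAi)*. In *control(RNAi)* the counts were 13, 15 and 16. By edgeR 0 of the 18 were called at 24 hpa against 6 hpa in either condition. In that comparison 14 had an unadjusted p under 0.05 in *yki(RNAi)* and 9 in *control(RNAi)*, beside 10553 of all 27734 and 10266 of all 27449 transcripts tested. Of the 14 not tail-enriched, 1, 8 and 13 were called higher at 6, 12 and 24 hpa in *yki(RNAi)* and 1, 1 and 14 in *control(RNAi)*, and 9 and 12 were higher at 24 hpa than at 6 hpa. Of all transcripts tested, 0.484%, 3.23% and 6.18% were higher over intact animals in *yki(RNAi)* and 0.707%, 1.3% and 1.64% in *control(RNAi)*. The study chose both sets as higher in tails than in intact animals on these libraries. Their calls follow at least in part from that choice, so nothing is read from them. Of the 97 genes of an earlier wound study, 5 are members. In *yki(RNAi)* tails, 9, 15 and 13 of the 94, 94 and 93 tested were called higher at 6, 12 and 24 hpa and 4, 4 and 6 lower. In *control(RNAi)* tails, 23, 16 and 19 of the 95, 94 and 93 tested were called higher and 4, 7 and 8 lower. Lower were 2.31%, 2.95% and 3.47% of all transcripts tested in *yki(RNAi)* and 2.47%, 2.79% and 2.66% in *control(RNAi)*. The difference between the RNAi conditions in these counts was not tested.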

How the data were processed

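The authors sequenced polyadenylated RNA as 50-base single reads, processed them with bcl2fastq 1.8.3, trimmed 15 bases and aligned the rest with Bowtie2 2.2.4 to the SmedASXL transcriptome. The counting tool is not given in the sources used here. The deposited values are raw counts per transcript and lane, and the lanes of each library were summed. In the deposited counts of lane 2 of *yki(RNAi)* intact A, the 21 last rows repeat 382 and 1 entry is not whole, so lane 1 alone was used for that library. The unnamed row, 6.31 to 7.49% of counts, stayed out of totals and tests. Further deposited sheets hold the authors' DESeq2 fold changes and p-values and were not used.

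CPM was computed on plain totals. Each comparison was fitted on its 6 libraries with edgeR 4.0.16 in R 4.3.3 (quasi-likelihood F test, TMM scaling, filterByExpr with a minimum count of 10 and a minimum total of 15, two-sided), with Benjamini-Hochberg adjustment over all transcripts tested, and fold changes carry their standard error (SE). DESeq2 1.42.0 was an alternative. Tables were made with Python 3.11.15 and pandas 2.3.3, and the fits were tested on simulated data. The labels call the libraries biological replicates, and p-values measure the spread between them. All comparisons of tails with intact animals in 1 RNAi condition share the intact libraries. No sequence of the transcripts was used, so reads shared between similar transcripts could not be traced.

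The members and all lists were chosen with earlier results of these data known. Transcripts were named where they led the list of differences (8), had a name or a listing in the study's tables, were among the 3 largest changes called in a comparison without overlap of libraries, stood at the limit of the list (3 on each side) or were among the 5 of highest level. The values of 1 member that meets this rule are not reported here. Replicate letters were taken to pair libraries where the same-letter correlations of deviations all exceeded 0.1. These were 0.302 to 0.607 for *control(RNAi)* tails at 24 against 6 hpa, 0.305 to 0.598 for *yki(RNAi)* tails at 24 against 6 hpa and 0.120 to 0.159 for *yki(RNAi)* tails at 6 hpa against intact animals. Alternatives were other size factors, no filter, all 24 libraries in 1 fit, the replicate block, DESeq2, leaving out each library, and other settings of the rule. Leaving out the 16 members of wide spread, leaving out the 23 members under 5 CPM in both groups of intact animals, and TMM-scaled medians were chosen after seeing the data.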

Additional observations from a re-analysis of the deposited data

Results flagged for a closer look

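Library by library, 6 members moved in opposite directions on amputation in the RNAi conditions, with every *yki(RNAi)* tail library above and every *control(RNAi)* tail library below the intact animals of its condition. The difference between the conditions was not tested, since it is part of the contrast that chose the members. At 6 hpa, SmedASXL_009207 changed by 0.19 in *yki(RNAi)* and -0.15 in *control(RNAi)*, as the log2 of the mean CPM + 0.5 in tails minus intact animals. At 12 hpa, SmedASXL_004625 changed by 0.61 in *yki(RNAi)* and -0.81 in *control(RNAi)*, and SmedASXL_005900 by 0.78 and -0.62. SmedASXL_008973 changed by 0.25 in *yki(RNAi)* and -0.25 in *control(RNAi)*, SmedASXL_012152 by 0.26 and -0.32, and SmedASXL_007429 by 0.14 and -0.45. The same pattern was found in 0.236% of the 13156 transcripts at 6 hpa, against 1 member (0.667%), and in 1.81% at 12 hpa, against 5 members (3.33%). At 24 hpa it was found in 0.22%, against 0 members. The reverse pattern was found in 35, 119 and 16 of the 13156 transcripts at 6, 12 and 24 hpa, and in 0 members. With so few members, nothing is read from these shares.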

How the results depend on the processing

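No call of a named member turned its direction, but the balance of calls over the members did. In *control(RNAi)* tails at 24 against 6 hpa, 1 higher and 3 lower became 16 higher and 3 lower with the replicate block. In *control(RNAi)* tails at 12 hpa, 10 higher and 1 lower became 11 higher and 12 lower with no filter on low counts. Of the medians over members, that at 12 hpa in *control(RNAi)* was 0.01, and -0.003 without *control(RNAi)* intact B, and that at 24 against 6 hpa in *yki(RNAi)* was -0.07, and 0.011 without *yki(RNAi)* 24 hpa A. With no filter on low counts, *yki(RNAi)* tails at 6 hpa had 17 members higher and 3 lower, and in *control(RNAi)* tails 21 were higher at 6 hpa, 12 lower at 12 hpa and 32 higher at 24 hpa. In 1 fit over all 24 libraries, 28 were higher in *control(RNAi)* tails at 24 hpa. At 24 hpa against 6 hpa, members higher numbered 4 in the fit over all libraries and 8 with DESeq2 for *yki(RNAi)*, and 13 with no filter, 10 in the fit over all libraries and 2 with DESeq2 size factors for *control(RNAi)*. Where the replicate letters paired the libraries, the replicate block called 17 members higher and 2 lower at 6 hpa in *yki(RNAi)*, and 16 higher in *control(RNAi)* tails at 24 against 6 hpa, and moved no other count of calls in these comparisons by over 1.5 times. Elsewhere the same-letter correlations did not all exceed 0.1. For *control(RNAi)* tails at 24 hpa against intact animals they were 0.271 for A, 0.003 for B and 0.142 for C, and the block gave 30 members higher in place of 15. Without the 16 members of wide spread, the *yki(RNAi)* counts of members called higher were 11 at 12 hpa, 11 at 24 hpa and 1 at 24 against 6 hpa, and without the 23 members under 5 CPM in intact animals they were 9, 10 and 1. Leaving out 1 library gave 7 to 17 higher in *yki(RNAi)* tails at 6 hpa, against 1 to 2 lower at 12 hpa (2 without intact B) and 11 to 30 higher and 1 to 2 lower at 24 hpa in *control(RNAi)* tails. At 24 against 6 hpa it gave 1 to 2 lower in *yki(RNAi)* (1 without 24 hpa A) and 1 to 8 higher in *control(RNAi)* tails. The cause was not tested. The rule kept 121 to 149 of the 150 members under its alternative settings and 122 to 149 without 1 library.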
